A study of Homo sapiens with 12 samples.

Results

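The genes described here are 49 members of the Wnt pathway, taken by gene symbol: 16 ligands, 14 receptors and co-receptors, 2 ubiquitin ligases that act on the receptors, 5 secreted inhibitors, 8 proteins of the cytoplasmic relay and 4 nuclear factors. All 49 were found among the 20503 genes to which array probes could be assigned, and they were read by 66 of the 50599 probes. The data came from 12 Agilent SurePrint G3 arrays of one color, in 4 groups of 3. HA22T and PLC5, human hepatocellular carcinoma lines, were transfected for 48 h with 10 nM of a non-targeting siRNA (siControl) or of a pool of siRNAs against GALNT1 (siGALNT1). GALNT1 is a Golgi enzyme that starts mucin-type O-glycosylation of proteins. No ligand or other stimulus was listed for any group, all 4 groups carried the same transfection reagent, and no untransfected cells were among the samples. The labels do not say that the replicates were separate cultures, so the p-values measure the spread between arrays, which may be technical.

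Wnt proteins are lipid-modified signals that bind Frizzled receptors together with the co-receptors LRP5 and LRP6. In the canonical branch this stops a complex built on AXIN and APC from marking beta-catenin for degradation, and beta-catenin then works with TCF and LEF factors on target genes, several of which encode inhibitors of the pathway. Other branches run through ROR and RYK receptors or planar polarity proteins without beta-catenin. In the liver the canonical branch sets the gene program of hepatocytes around the central vein, and its components are often mutated in hepatocellular carcinoma.

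Every level below is the log2 intensity of a probe relative to the 75th percentile of its array, so that a level of 0 equals that percentile, and every difference is on the log2 scale. Levels of different probes are not on one scale and were compared only between groups. Each gene is given by its brightest probe unless stated, and a test was made where at least 3 of the 6 arrays compared were well above background. Adjusted p-values are from limma with Benjamini-Hochberg adjustment over all tested probes, with 0.05 as the threshold. Two-sided exact permutation tests between groups of 3 can reach no p lower than 0.1. Of the 49 genes, 28 were well above background on all 12 arrays. WNT4 and WNT5A were above it on no array, and WNT11, FZD8 and NOTUM on too few arrays to be tested in any comparison between a pair of groups. In HA22T, 39 genes were well above background on every siControl array and 30 on every siGALNT1 array, and in PLC5 41 and 38. A flagged spot counted as not above background in these counts. WNT2B, WNT3A, NKD1, TBX3 and DVL3 with siGALNT1 in HA22T, and APC with siGALNT1 in PLC5, missed them only through flags. They were above background on every unflagged array, so these counts are not detection alone.

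The libraries were first checked against their labels. GALNT1 read 1.32, 0.75 and 0.85 with siControl and −3.15, −3.68 and −5.55 with siGALNT1 in HA22T. In PLC5 it read 0.87, 0.37 and 0.61 with siControl and −1.93, −3.47 and −3.92 with siGALNT1. The siRNA arrays lay below their controls in both lines (exact permutation p = 0.1), by 34.3-fold in HA22T and 13.2-fold in PLC5. The HA22T array at −5.55 was not well above background, so the first fold is a fitted value that reads background on 1 array. The limma adjusted p was 0.0708 and 1 at this probe, and 0.0305 in HA22T at a second GALNT1 probe. Of 9 hepatocyte markers, 8 were lower in HA22T than in PLC5, among them HNF4A, a master regulator of hepatocyte genes, (−3.24, adjusted p = 0.000211) and ALB, which encodes albumin (−3.96, adjusted p = 0.000101). ALB was still well above background on the 3 siControl arrays of HA22T but on only 1 of its siGALNT1 arrays. VIM, an intermediate filament protein of mesenchymal cells, was higher in HA22T by 5.54. The 4 mesenchymal markers did not share a direction: with siControl VIM and ZEB1 were called higher in HA22T, FN1 was called lower and CDH2 was not called. With siGALNT1 CDH2 was called higher as well, and FN1 was again lower. KRT8 and KRT18, keratins of simple epithelia, were bright in both lines. Only 3 of 5 epithelial markers could be tested, and 0 were called with either siRNA. PECAM1, best known from endothelium, was higher in PLC5 (HA22T minus PLC5 −5.41), whereas CDH5, another endothelial marker, differed by −0.32 and was not called. The part of these markers in the Wnt gene differences was not tested. The 6 HA22T arrays and replicate 1 of both PLC5 groups shared a slide, and the other PLC5 arrays lay on a second one. Counts of genes called between the lines are therefore also given with the slide as a block and within slide 1. Differences under these settings are given for some genes only.

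HA22T and PLC5 differed widely in the Wnt genes they expressed. With siControl, 18 of 44 tested genes differed between the lines (40.9%), against a background of 26.6% of the 17417 genes tested on the array. Of these, 10 were higher in HA22T, where the background was 14.2%, and 8 were higher in PLC5, where it was 12.4%. The levels with siGALNT1 came from other arrays, but both comparisons shared 1 estimate of the spread over all 12 arrays. With siGALNT1, 17 of 43 tested genes differed (39.5%, background 26.6%), 9 of them higher in HA22T (background 11.6%) and 8 in PLC5 (background 15%). All 9 of the higher genes and all 8 of the lower genes were also called with siControl. The exception was WNT2, called with siControl only. A fit with the slide as a block called 16 genes in each comparison. It lost WNT2, FZD4 and ROR1 with siControl and ROR1 and RYK with siGALNT1, and gained FZD7 with either siRNA. With only the compared groups in the fit, 18 and 14 were called, and FZD1, ROR1 and RYK lost their call with siGALNT1. Within slide 1, which held 1 PLC5 array per siRNA, 10 and 7 were called, and all 18 and 17 kept their direction; there the lone PLC5 array of each siRNA was assumed to vary like the other groups, so this is a description. The median difference over the tested genes was 0.16 with siControl and 0.20 with siGALNT1, beside 0.10 and 0.07 over all genes. Arrays of the lines did not overlap for 11 genes higher and 8 lower in HA22T with siControl (background 26.1% and 21.3%), and for 18 higher and 12 lower with siGALNT1 (background 22.6% and 23.2%).

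**Figure D1:**
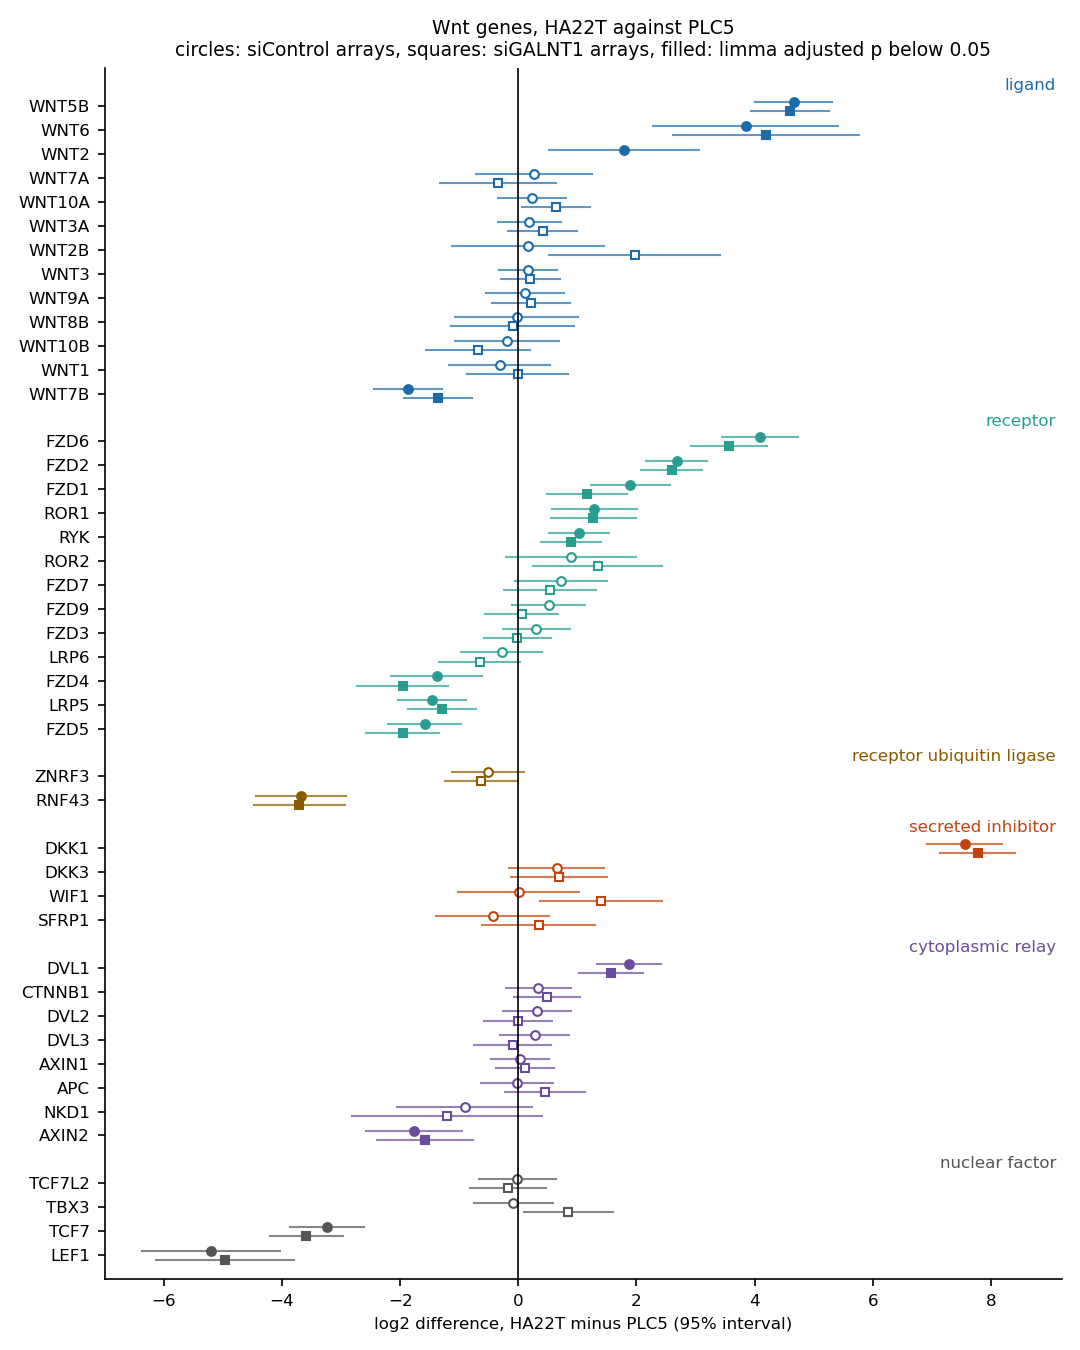
Differences of the tested Wnt genes between HA22T and PLC5, by role. The x axis is the log2 difference, HA22T minus PLC5, with its 95% interval; circles are the siControl arrays and squares the siGALNT1 arrays, filled where the limma adjusted p was below 0.05. DKK1 stands at the far right, with 7.55 and 7.77, and LEF1 at the far left, with −5.20 and −4.96; for these genes the dimmer line was below background, so the fitted values are not measured folds.

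Among the ligands, 4 of 13 tested genes differed with siControl, beside the background of 26.6%. WNT5B, a ligand mostly studied for signaling without beta-catenin, read 3.29, 2.85 and 3.02 on the HA22T siControl arrays and −1.89, −1.38 and −1.54 on those of PLC5. With siGALNT1 it read 2.84, 2.89 and 2.55 in HA22T and −1.95, −2.32 and −1.26 in PLC5. All HA22T arrays were thus high and all PLC5 arrays low, with a wide gap between them. The difference was 4.66 (SE 0.30, 25.2-fold, adjusted p = 1.14e-06) with siControl and 4.60 (24.2-fold, adjusted p = 1.3e-06) with siGALNT1, and 4.86 and 4.80 with the slide as a block. WNT6, another ligand, was also higher in HA22T, by 3.85 (SE 0.71, 14.4-fold, adjusted p = 0.00233) and 4.19 (18.2-fold, adjusted p = 0.00138). Its HA22T arrays were far apart, at −0.75, 0.69 and 1.30 with siControl and −1.64, 0.93 and 1.16 with siGALNT1, while those of PLC5 read −4.11, −3.11 and −3.08 and −3.95, −4.38 and −3.78. Replicate 1 was the low array in HA22T with both siRNAs, yet it remained above every PLC5 array.

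WNT7B, a canonical ligand, was the tested ligand that was higher in PLC5. Its brightest probe read −1.99, −1.87 and −1.68 in HA22T and 0.32, 0.25 and −0.51 in PLC5 with siControl, and −1.52, −1.61 and −1.65 against −0.14, −0.22 and −0.35 with siGALNT1. The lines did not overlap, and the differences were −1.86 (SE 0.26, adjusted p = 0.000322) and −1.36 (adjusted p = 0.00294). A dimmer WNT7B probe ran against this. It was well above background on the 3 HA22T siGALNT1 arrays and on none of the other 9 arrays, of which HA22T siControl replicate 2 was flagged. With siGALNT1 this probe was at least 3.58-fold higher in HA22T than in PLC5 (adjusted p = 0.00033 from limma). It passed the filter only through those 3 arrays and was picked after its values were seen. The p-value is therefore no support for a line difference. Here and below, "at least" sets the mean of the brighter group against the higher of the dim probe's own signal and the lowest signal of probes above background on each array of the dimmer group. WNT2 was higher in HA22T by 1.79 (adjusted p = 0.0467) with siControl, but it was above background on only 2 of those arrays. Under the slide block WNT2 missed the threshold (1.93, adjusted p = 0.106), and it was called in 4 of the 12 fits that left out 1 array. WNT3 and WNT3A, canonical ligands that the study followed, differed between the lines by 0.16 and 0.19 with siControl and were not called. WNT2B read higher in HA22T by 1.97 with siGALNT1, just outside the threshold (adjusted p = 0.0527), and by 0.16 with siControl.

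The receptors held the most differences, with 8 of 13 tested genes called with either siRNA beside the background of 26.6%, and they split by line within one family. FZD6, FZD2 and FZD1 were higher in HA22T, and FZD5 and FZD4 in PLC5. Frizzleds are seven-pass receptors with an extracellular domain that takes up the lipid of the Wnt protein. FZD6, a Frizzled linked to planar polarity, read 1.46, 1.53 and 0.96 in HA22T and −2.39, −3.24 and −2.71 in PLC5 with siControl. With siGALNT1 it read 1.19, 0.78 and 1.14 in HA22T and −2.19, −2.68 and −2.70 in PLC5. The lines were far apart on every array, by 4.09 (SE 0.29, 17.1-fold, adjusted p = 2.45e-06) and 3.56 (11.8-fold, adjusted p = 7.55e-06), or 3.73 and 3.20 with the slide as a block. FZD2, a receptor for WNT5-type ligands among others, read 2.21, 2.20 and 2.58 in HA22T and −0.27, −0.36 and −0.41 in PLC5 with siControl, and 2.27, 2.47 and 2.42 against −0.42, 0.10 and −0.31 with siGALNT1. Its replicates lay close together and did not overlap between the lines, which differed by 2.68 (SE 0.23, 6.40-fold, adjusted p = 9.53e-06) and 2.59 (6.04-fold, adjusted p = 1.32e-05).

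FZD1, the close relative of FZD2 and FZD7, differed less. It read −0.73, −1.23 and −0.62 in HA22T and −2.89, −2.96 and −2.42 in PLC5 with siControl, and −0.98, −1.67 and −0.98 against −2.32, −2.06 and −2.75 with siGALNT1. The differences were 1.90 (SE 0.31, adjusted p = 0.000898) and 1.17 (adjusted p = 0.0177), and in the second comparison the call was lost in 3 of 12 fits that left out 1 array, while the lowest value among the 12 was 0.98. FZD7 itself read 0.72 and 0.53 higher in HA22T and was called only with the slide as a block. FZD5 ran the other way. It read −0.91, −0.60 and −0.87 in HA22T and 1.02, 0.70 and 0.65 in PLC5 with siControl, and −1.22, −0.56 and −0.77 against 1.13, 1.51 and 0.68 with siGALNT1. PLC5 was above HA22T on all arrays, with differences of −1.58 (SE 0.28, 2.99-fold, adjusted p = 0.0018) and −1.96 (3.88-fold, adjusted p = 0.000427). FZD4, a Frizzled that also serves the ligand norrin, was higher in PLC5, with differences of −1.38 (adjusted p = 0.015) and −1.95 (adjusted p = 0.00195). With the slide as a block the first was −0.95, short of the threshold (adjusted p = 0.119), and the second −1.52 (adjusted p = 0.0169).

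LRP5, a co-receptor of the canonical branch, was higher in PLC5. It read 0.59, 0.99 and 1.19 in HA22T and 2.59, 2.29 and 2.26 in PLC5 with siControl, a difference of −1.46 (SE 0.26, adjusted p = 0.00185), and of −1.29 with siGALNT1 (adjusted p = 0.00414). With the slide as a block these were −1.70 and −1.54. LRP6, its partner, differed by −0.28 and was not called. Among the receptors of the branches without beta-catenin, ROR1 and RYK were higher in HA22T: ROR1, a tyrosine kinase-like receptor for WNT5-type ligands, by 1.29 (adjusted p = 0.0153) and 1.27 (adjusted p = 0.0167), and RYK, a further tyrosine kinase-like receptor, by 1.02 (adjusted p = 0.0076) and 0.89 (adjusted p = 0.0162). A second ROR1 probe gave 3.16 and 3.00. With the slide as a block the brighter ROR1 probe gave 1.11 (adjusted p = 0.0883) and 1.08 (adjusted p = 0.0838), and RYK with siGALNT1 gave 0.83 (adjusted p = 0.0609), all short of the threshold. ROR2 read 0.89 and 1.34 higher in HA22T and was not called.

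RNF43, a membrane ubiquitin ligase that removes Frizzleds from the surface and is itself a canonical target, was 12.8-fold lower in HA22T with siControl. It read −3.51, −2.69 and −2.68 in HA22T and 1.01, 0.58 and 0.57 in PLC5, and with siGALNT1 −3.72, −2.72 and −3.14 against 0.90, 0.55 and 0.09. All PLC5 arrays were far above all HA22T arrays, and the differences were −3.68 (SE 0.35, adjusted p = 1.88e-05) and −3.71 (13.0-fold, adjusted p = 1.9e-05). With the slide as a block they were −4.02 and −4.05, and within slide 1 −3.97 and −4.10. The brightest probe of ZNRF3, the related ligase, gave −0.51 and −0.63 and was not called, while its other probe gave −1.90 (adjusted p = 0.0141) and −2.28 (adjusted p = 0.00521).

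Among the 49 genes the widest fitted difference was that of DKK1, a secreted inhibitor that binds LRP5 and LRP6 and is a known canonical target. It read 1.57, 1.31 and 0.92 with siControl and 1.11, 0.76 and 0.87 with siGALNT1 in HA22T. In PLC5 it read −6.67, −5.79 and −6.40 with siControl and −6.59, −6.89 and −7.09 with siGALNT1, and none of these 6 arrays was well above background. DKK1 was thus high on every HA22T array and not above background in PLC5, at least 104-fold apart with siControl (adjusted p = 4.91e-08) and at least 93.0-fold with siGALNT1 (adjusted p = 4.04e-08). It passed the filter for testing only through its HA22T arrays, so these p-values set signal against background. The fitted differences, which read the background signal of PLC5 as a level, were 7.55 and 7.77, and 7.61 and 7.83 with the slide as a block. Of the other secreted inhibitors, DKK3 (0.65 and 0.69), WIF1, which binds Wnt proteins directly (0.01 and 1.40), and SFRP1, a decoy with a Frizzled-like domain (−0.43 and 0.35), were not called. WIF1 with siGALNT1 was just outside the threshold (adjusted p = 0.0521).

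In the cytoplasmic relay, 2 of 8 tested genes differed, a share near the background of 26.6%. DVL1, one of the Dishevelled proteins that carry the signal from Frizzled, read 3.07, 2.37 and 2.70 in HA22T and 1.00, 0.74 and 0.77 in PLC5 with siControl, and 2.65, 2.59 and 2.47 against 1.19, 1.07 and 0.77 with siGALNT1. HA22T was higher on all arrays, by 1.87 (SE 0.25, 3.66-fold, adjusted p = 0.00021) and 1.56 (2.96-fold, adjusted p = 0.000806), and a second probe gave 1.76 and 1.65. DVL2 and DVL3 differed by 0.32 and 0.28 with siControl and were not called. AXIN2, a scaffold of the destruction complex and the textbook readout of canonical signaling, was dim in both lines at the probe tested here. It read −5.71, −4.66 and −5.38 in HA22T and −3.32, −3.68 and −3.47 in PLC5 with siControl, and −5.30, −5.50 and −4.18 against −3.54, −3.28 and −3.43 with siGALNT1. PLC5 was above HA22T on all arrays, with differences of −1.76 (SE 0.37, adjusted p = 0.00514) and −1.58 (adjusted p = 0.01), but this probe was above background on only 1 of 3 HA22T siControl arrays. A brighter AXIN2 probe was flagged on most arrays and could not be tested between the lines. It was well above background on every unflagged array. Its only unflagged siControl arrays read −1.13 in HA22T and 1.32 in PLC5. AXIN1, the relative of AXIN2, differed by 0.03 and APC, the other scaffold, by −0.02. The brightest probe of CTNNB1, which encodes beta-catenin itself, differed by 0.34 and 0.49 and was not called. Its other probe was called with siControl (1.04, adjusted p = 0.006) and not with siGALNT1 (0.62, adjusted p = 0.0708). NKD1, an inhibitor that binds Dishevelled, was not called (−0.91 and −1.20).

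The nuclear end of the pathway was lower in HA22T for 2 of its 4 genes, where the background was 12.4% with siControl. LEF1 and TCF7, which encode DNA-binding partners of beta-catenin, were both brighter in PLC5. LEF1 read −2.05, −2.65 and −2.53 with siControl and −1.67, −2.16 and −2.59 with siGALNT1 in PLC5. In HA22T it read −7.72, −8.24 and −6.87 with siControl and −8.38, −6.21 and −6.71 with siGALNT1, well above background on none of these arrays. PLC5 was therefore at least 8.84-fold higher with siControl (adjusted p = 3.44e-05) and at least 7.14-fold higher with siGALNT1 (adjusted p = 5.12e-05). LEF1 passed the filter for testing only through its PLC5 arrays, so these p-values too set signal against background. TCF7 read −2.68, −3.36 and −3.47 in HA22T and 0.15, −0.01 and 0.06 in PLC5 with siControl, and −3.01, −3.39 and −3.67 against 0.13, 0.52 and 0.04 with siGALNT1. The lines did not overlap and differed by −3.24 (SE 0.28, 9.44-fold, adjusted p = 1.04e-05) and −3.59 (12.0-fold, adjusted p = 5.68e-06). A second TCF7 probe was above background on no HA22T array and was at least 18.6-fold and 13.6-fold higher in PLC5. TCF7L2, the other TCF factor of the list, differed by −0.02 with siControl. The brightest probe of TBX3, a T-box factor and Wnt target in liver tumors, differed by −0.08 and 0.85 and was not called, while a dimmer probe was lower in HA22T (−2.28, adjusted p = 0.000139, and −2.59, adjusted p = 5.71e-05).

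**Figure D2:**
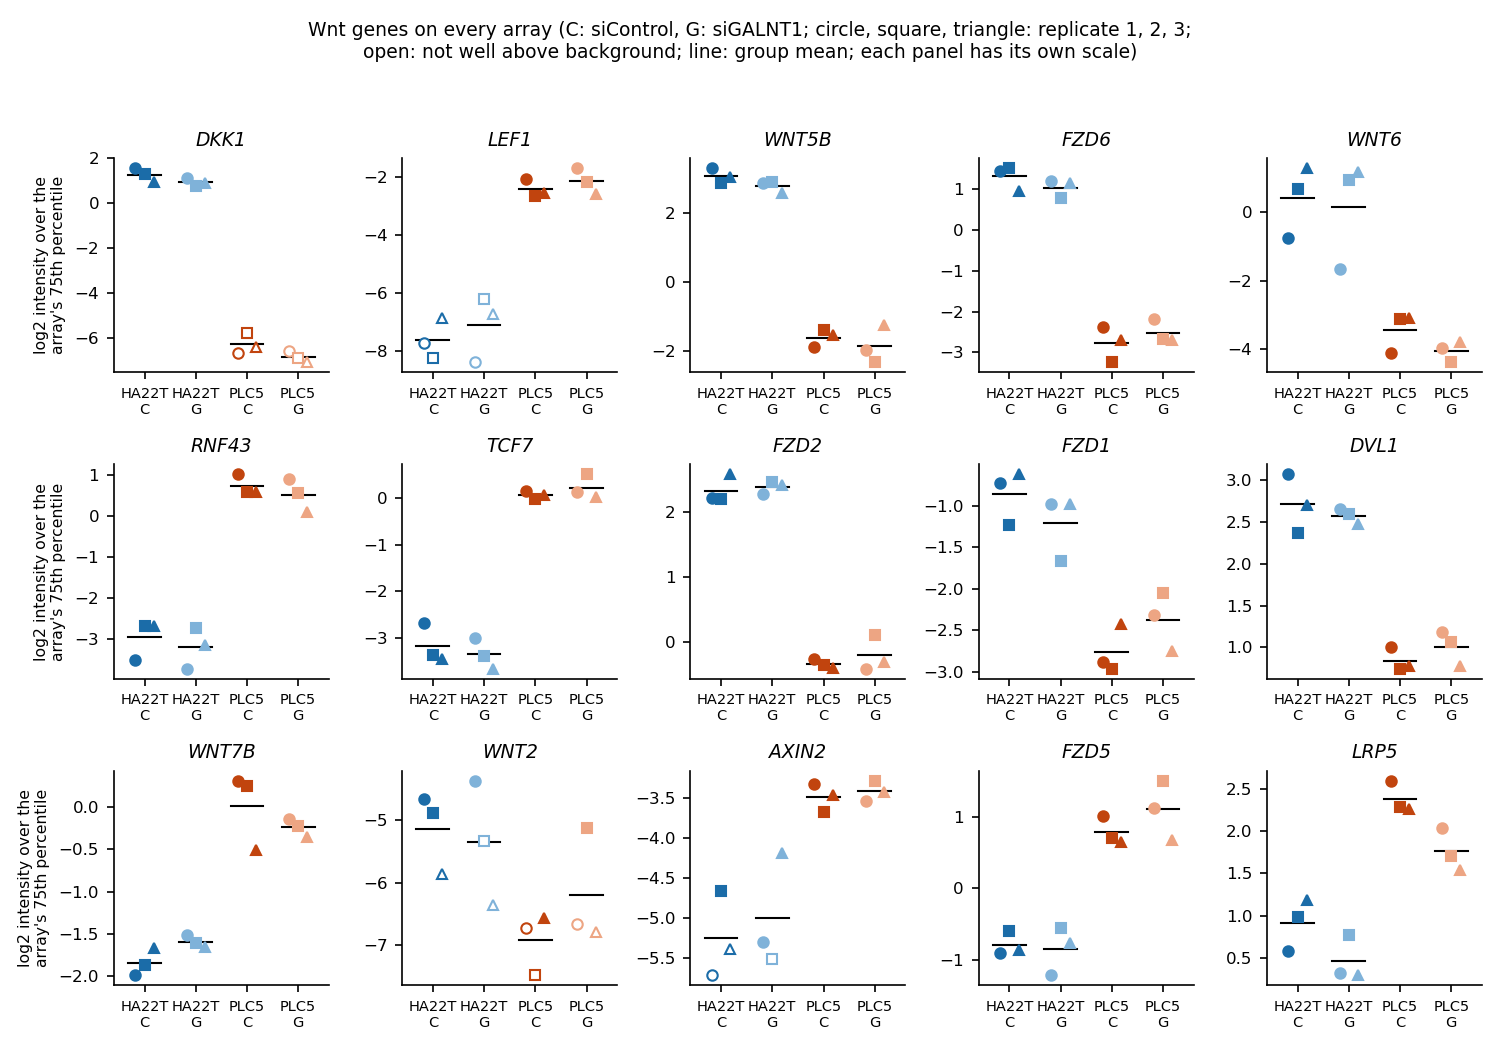
Levels of 15 Wnt genes on every array, as log2 intensity over the 75th percentile of the array. Each panel has its own scale, C is siControl and G siGALNT1, circles, squares and triangles are replicates 1, 2 and 3, open symbols are not well above background and lines are group means. The 6 HA22T arrays of DKK1 lie between 0.76 and 1.57 and its 6 open PLC5 symbols between −7.09 and −5.79, while LEF1 shows the opposite arrangement.

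DKK1 and LEF1 were detected in opposite lines, and both belong to genes that answer to or bind with beta-catenin. The sequences around their starts are shown, with those of TCF7 and of SP5, a canonical target described below that followed DKK1. TCF7 and SP5 were added because their windows held the letters marked below, so their matches follow from that choice. Each sequence holds the 250 bases before and 50 bases after a start of the gene from RefSeq (GRCh38.p14), read 5′ to 3′ on the strand of the gene. Capitals mark the letters CTTTGAT or CTTTGTT or CTTTGAA or CTTTGTA, cores of the motif to which TCF and LEF factors bind, on either strand, and TATAAA on the strand of the gene. The 4 core motifs differ only at their end and cannot overlap on the same strand.
DKK1, chr10:52314031-52314330, plus strand: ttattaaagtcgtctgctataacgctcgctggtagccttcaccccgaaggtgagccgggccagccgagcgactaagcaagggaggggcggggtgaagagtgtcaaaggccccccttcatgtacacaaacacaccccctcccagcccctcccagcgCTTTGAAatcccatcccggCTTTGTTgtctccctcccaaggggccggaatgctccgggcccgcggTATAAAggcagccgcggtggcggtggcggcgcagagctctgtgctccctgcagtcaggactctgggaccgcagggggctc
LEF1, chr4:108166252-108166551, minus strand: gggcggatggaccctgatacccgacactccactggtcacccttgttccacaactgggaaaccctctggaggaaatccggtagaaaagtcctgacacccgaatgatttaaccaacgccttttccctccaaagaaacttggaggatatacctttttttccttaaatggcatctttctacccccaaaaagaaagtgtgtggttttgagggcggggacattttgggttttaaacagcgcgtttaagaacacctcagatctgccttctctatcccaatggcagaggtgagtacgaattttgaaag
TCF7, chr5:134123368-134123667, plus strand: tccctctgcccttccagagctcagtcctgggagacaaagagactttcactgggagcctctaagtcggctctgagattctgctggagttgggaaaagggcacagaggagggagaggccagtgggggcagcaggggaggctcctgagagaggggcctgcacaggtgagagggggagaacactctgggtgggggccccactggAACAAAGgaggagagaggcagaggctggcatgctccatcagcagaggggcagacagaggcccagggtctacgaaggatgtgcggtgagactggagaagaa
SP5, chr2:170715087-170715386, plus strand: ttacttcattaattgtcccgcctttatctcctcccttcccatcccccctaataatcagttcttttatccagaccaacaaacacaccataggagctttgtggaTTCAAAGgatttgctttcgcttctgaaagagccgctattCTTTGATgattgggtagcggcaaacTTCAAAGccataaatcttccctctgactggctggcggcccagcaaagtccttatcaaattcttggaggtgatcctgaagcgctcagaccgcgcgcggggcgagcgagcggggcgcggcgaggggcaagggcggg
The DKK1 window held CTTTGAA 95 bases and CTTTGTT 76 bases before the start, and TATAAA 30 bases before it. The SP5 window held 3 core motifs, at 148, 109 and 84 bases before the start. The TCF7 window held 1, read as AACAAAG on this strand 50 bases before the start, and the LEF1 window held none of these letters. Of the 2 listed starts of TCF7 the second is shown, because the window with the most core motifs was taken for each gene. At least 1 core motif was present in 13.8% of the 35116 windows of this kind, 3 or more in 0.179%, and TATAAA in 7.33%. Of the 49 Wnt genes, 34 had a window in the table, and 4 of these held a core motif: DKK1, TCF7, TCF7L2 and WNT3. A gene counted here if any of its windows held one, whereas the 13.8% is a share of windows, so the counts are not on one scale. A match of letters is a description and was not tested for binding.

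After knockdown of GALNT1, no tested Wnt gene was called by limma in HA22T (0 of 43) or in PLC5 (0 of 42). This comparison asked whether loss of the glycosyltransferase moves the transcripts of the pathway. The background over all genes was also 0%, of 16967 and 17316 tested. Without adjustment, no Wnt gene in HA22T and 1 in PLC5 had p below 0.05 (background 2.64% and 0.797%). The same held at the criterion of the methods, a fold of at least 1.5 with an unadjusted p below 0.05 (background 2.52% and 0.762%). The differences ranged from −0.62 (FZD4) to 1.28 (WNT2B) in HA22T and from −0.62 (LRP5) to 0.38 (FZD1) in PLC5, with medians of −0.14 and −0.02 beside −0.10 and 0.04 over all genes. Arrays of the siRNAs did not overlap for 3 genes higher and 1 lower in HA22T (background 5.78% and 6.14%) and for 0 higher and 2 lower in PLC5 (background 2.39% and 2.29%).

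With the replicate numbers as pairs in HA22T, where arrays of 1 number deviated together, 0 of the 43 genes had an unadjusted p below 0.05 in limma, beside 5.07% of all genes. Within the 3 pairs, 10 genes were lower with siGALNT1 in every pair (23.3%, against 23% of all genes) and 3 were higher in every pair (6.98%, against 8.57%), shares near those of the array as a whole. Genes that lacked a pair through a flag stayed in these denominators but could not qualify. Among the 43 these were WNT2B, WNT3A, NKD1, TBX3 and DVL3, so the shares also depend on flags.

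These data set limits on the size of a change rather than show its absence. The 95% interval lay within 2-fold in either direction for 24 of 43 genes in HA22T and 27 of 42 in PLC5, and within 3-fold for 39 in each. The median standard error of a difference was 0.30. For the ligands that differed between the lines, the knockdown differences were −0.30 in HA22T and −0.24 in PLC5 for WNT5B, −0.26 and −0.60 for WNT6, 0.25 and −0.26 for WNT7B at its brightest probe, and −0.22 and 0.73 for WNT2, which was on too few arrays in PLC5 to be tested there. For the detected inhibitor DKK1 in HA22T the difference was −0.35 (95% interval −0.99 to 0.29), and the siRNA groups overlapped.

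**Figure D3:**
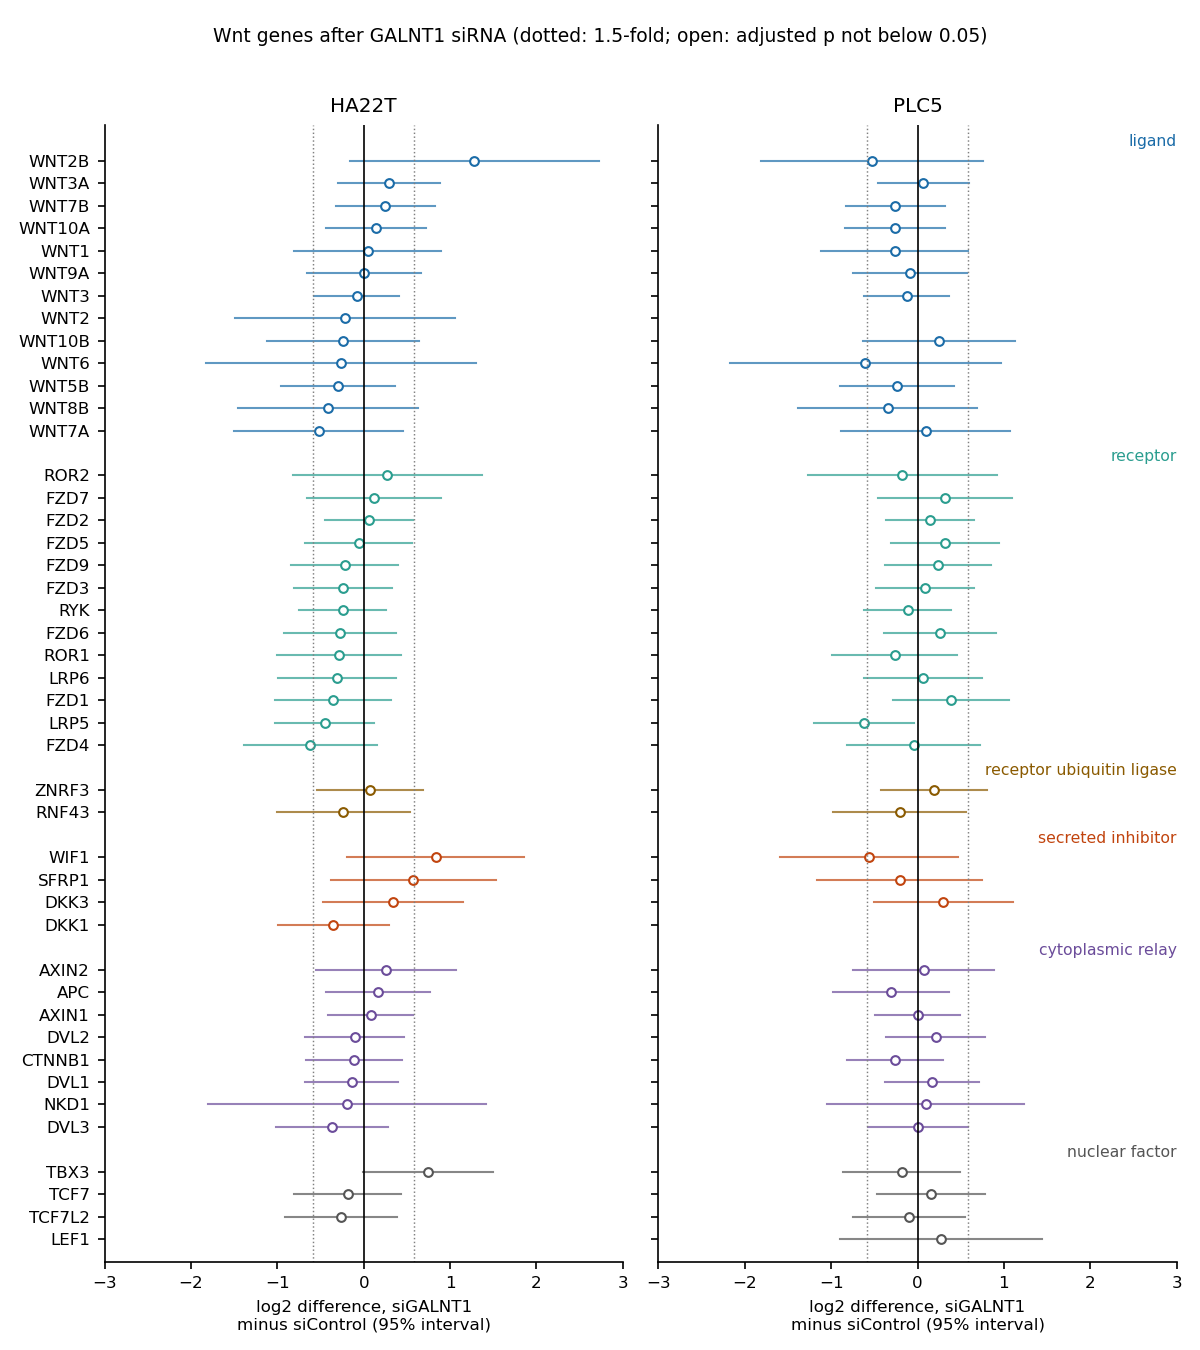
Differences of the tested Wnt genes after GALNT1 siRNA in HA22T (left) and PLC5 (right). The x axis is the log2 difference, siGALNT1 minus siControl, with its 95% interval, and dotted lines mark 1.5-fold; all points are open because no limma adjusted p was below 0.05. The interval of LRP5 in PLC5, from −1.19 to −0.05, is the one among the PLC5 genes that does not reach 0.

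LRP5 was the member that met the criterion of the methods. In PLC5 its siGALNT1 arrays read 2.04, 1.70 and 1.54, all below the lowest siControl array, and the difference was −0.62 (SE 0.26, 95% interval −1.19 to −0.05, unadjusted p = 0.0366, adjusted p = 1, exact permutation p = 0.1). Leaving out 1 array at a time gave −0.76 to −0.51 with unadjusted p-values of 0.0262 to 0.113, not below 0.05 in 5 of 12 fits, each of which lacked a PLC5 array. The unadjusted limma p also missed 0.05 with median scaling (0.0662), with the unflagged percentile (0.0564), with only the compared groups in the fit (0.0556) and on the slide 2 arrays alone (0.104). In HA22T LRP5 read 0.33, 0.78 and 0.30 with siGALNT1, lower than the siControl array of the same number in each case, but the groups overlapped and the difference was −0.45 (95% interval −1.03 to 0.12, unadjusted p = 0.11 from limma). The change did not differ detectably between the lines (0.17, SE 0.37, adjusted p = 0.988). LRP6 differed by −0.31 in HA22T and 0.06 in PLC5.

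WNT3 read −0.23, −0.10 and −0.25 with siControl and −0.29, −0.27 and −0.26 with siGALNT1 in HA22T. In PLC5 it read −0.11, −0.59 and −0.36 with siControl and −0.26, −0.49 and −0.70 with siGALNT1. The differences were −0.08 (95% interval −0.58 to 0.41) and −0.13 (−0.62 to 0.37), and the sign of the first turned under 2 other scalings of the arrays. WNT3A at its brightest probe read 4.15, 4.74 and 4.31 with siControl in HA22T and 4.66 and 4.72 with siGALNT1, where replicate 1 was flagged. In PLC5 it read 4.14, 4.38 and 4.13 with siControl and 4.19, 4.32 and 4.32 with siGALNT1. The groups overlapped in both lines, and the differences were 0.29 (95% interval −0.30 to 0.88) and 0.07 (−0.46 to 0.59).

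The gene nearest to the threshold in HA22T was TBX3, at 0.75 (SE 0.34, unadjusted p = 0.0524 from limma, with 1 siGALNT1 array flagged), while its dimmer probe gave −0.13. WNT2B read 0.19, 2.22 and 1.44 with siControl and 2.83 and 2.30 on the unflagged siGALNT1 arrays, a difference of 1.28 (95% interval −0.16 to 2.72). The siControl arrays were spread over a wider range than the difference itself. For no Wnt gene did the change after siGALNT1 differ between the lines by limma (0 of 45 genes tested, background 0% of 18191). Without adjustment none had p below 0.05 (background 1.92%), and the nearest in limma were WIF1 (1.39, unadjusted p = 0.0587, adjusted p = 0.988) and WNT2B (1.81, unadjusted p = 0.0643, adjusted p = 0.988).

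A further 65 genes of the pathway, outside the 49, were read in the same comparisons. Between the lines, 21 of 52 tested genes differed with siControl (40.4%, 12 higher and 9 lower in HA22T) and 22 of 51 with siGALNT1 (43.1%, 13 higher and 9 lower), beside the background of 26.6% in each. After siGALNT1 none was called in either line, and 1 gene in each, WNT9B (0.86, unadjusted p = 0.045) of 47 tested in HA22T and TNFRSF19 (1.15, unadjusted p = 0.0374) of 52 in PLC5, had an unadjusted p below 0.05, beside backgrounds of 2.64% and 0.797%. Canonical target genes did not share a direction between the lines. GLUL, glutamine synthetase of the hepatocytes around the central vein, read 2.76, 2.19 and 2.45 in PLC5 and −6.45, −6.33 and −6.58 in HA22T with siControl, where it was not above background. PLC5 was at least 260-fold higher with siControl (adjusted p = 8.42e-08), and with siGALNT1 it read 3.11, 2.63 and 2.01 in PLC5 and −5.05, −6.23 and −6.18 in HA22T, where only the first array was well above background (adjusted p = 1.13e-07). LGR5, a receptor for R-spondins and a stem cell marker, was likewise above background in PLC5 only, at least 9.13-fold and 6.26-fold higher there. NKD2, the relative of NKD1, was at least 24.0-fold higher in PLC5 with siControl.

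SP5, a transcription factor and canonical target, followed DKK1 instead. It read 0.47, −0.31 and −0.14 with siControl and −0.47, −0.07 and −0.11 with siGALNT1 in HA22T. In PLC5 it read −3.27, −3.83 and −3.38 with siControl and −3.80, −3.89 and −3.69 with siGALNT1. HA22T was higher on all arrays, by 3.50 (SE 0.27, 11.3-fold, adjusted p = 4.48e-06) and 3.58 (11.9-fold, adjusted p = 4.44e-06). MYC (1.84, adjusted p = 0.00202) and CD44, a cell surface receptor for hyaluronan (3.08, adjusted p = 0.00226), were also higher in HA22T with siControl. The amino acid enzyme OAT (−1.40, adjusted p = 0.00203) and the factor TCF4 (−1.67, adjusted p = 0.00546) were higher in PLC5, and the cyclin CCND1 differed by 0.09 and was not called. Of 11 targets tested, 3 were thus higher and 3 lower in HA22T, beside backgrounds of 14.2% and 12.4%.

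WLS, the carrier that takes Wnt proteins to the cell surface, was higher in HA22T by 3.84 (SE 0.36, 14.3-fold, adjusted p = 1.58e-05) with siControl and 3.78 (adjusted p = 1.89e-05) with siGALNT1. It read 0.04, −0.41 and −0.31 in HA22T and −3.42, −4.07 and −4.71 in PLC5 with siControl, and its second probe was above background in HA22T only. PRICKLE1 and VANGL1, planar polarity proteins, were higher in HA22T by 3.49 (adjusted p = 0.000166) and 1.27 (adjusted p = 0.00211). PRICKLE1 was well above background on only 1 of 3 PLC5 siControl arrays, and other settings gave 2.04 to 4.24. GSK3B, the kinase that marks beta-catenin, was higher in HA22T by 1.68 (adjusted p = 0.000186). LGR4, the relative of LGR5, was lower in HA22T (−2.39, adjusted p = 0.000337), as was KREMEN2, a receptor for DKK proteins (−2.05, adjusted p = 0.00356). SOST, a secreted LRP5 and LRP6 inhibitor, was called higher in HA22T with siControl (at least 3.95-fold, adjusted p = 0.0216), but not with the slide as a block, where the fitted 3.52 became 2.73.

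**Figure D4:**
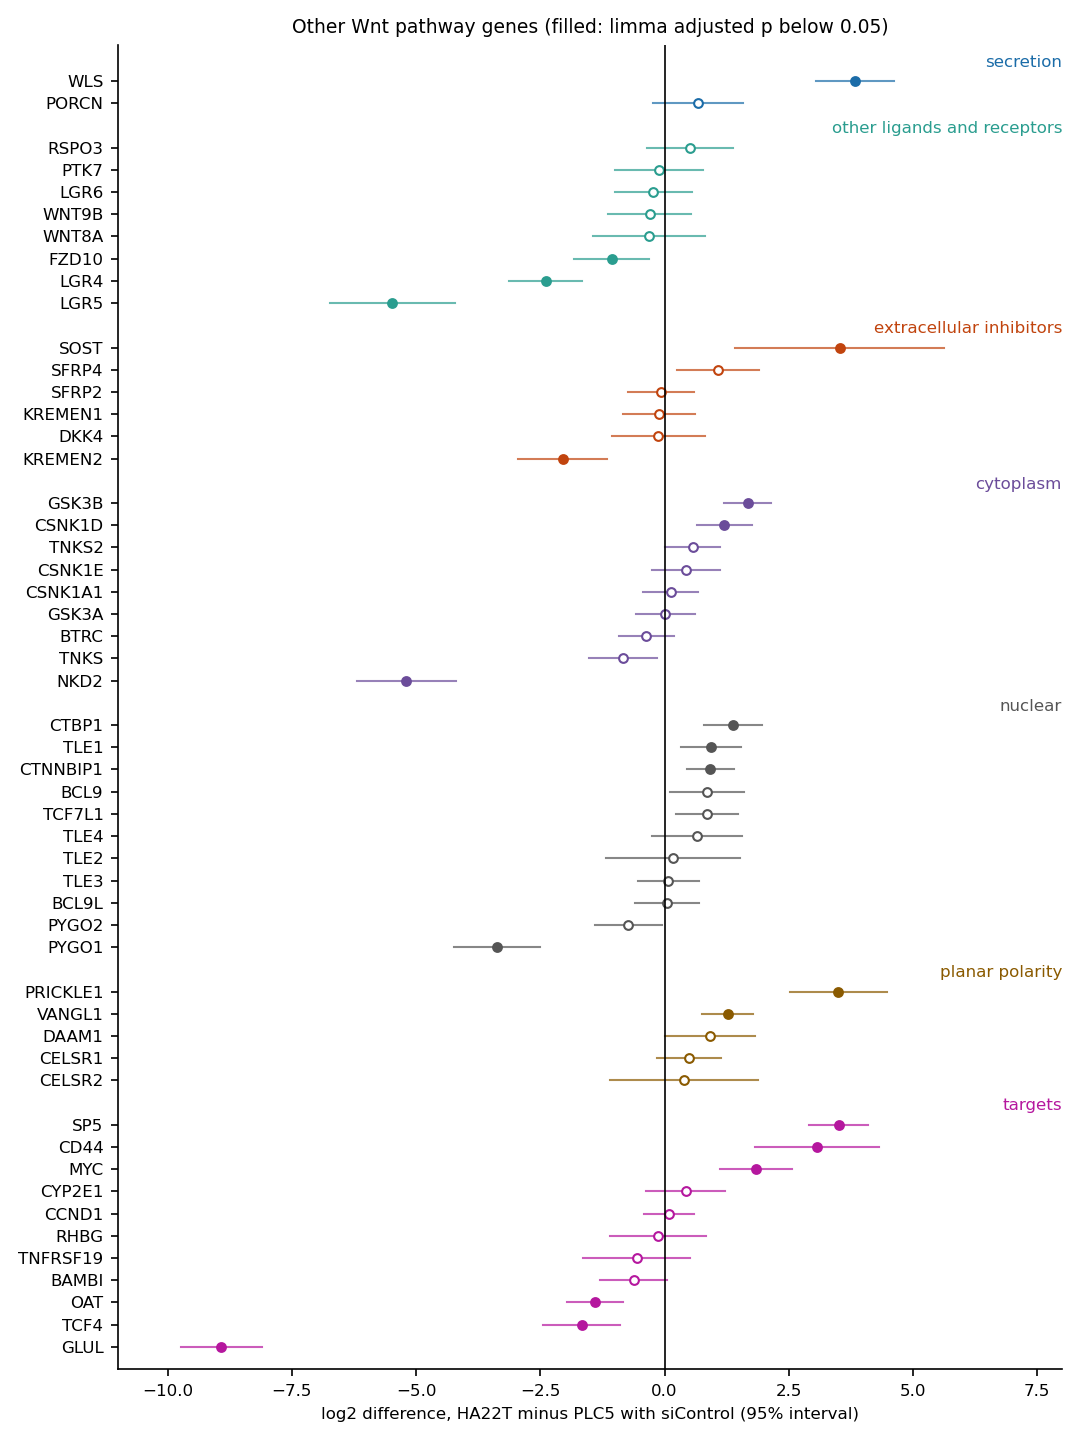
Differences of the further Wnt pathway genes between HA22T and PLC5 with siControl, by role. The x axis is the log2 difference, HA22T minus PLC5, with its 95% interval, filled where the limma adjusted p was below 0.05. GLUL (−8.93) and LGR5 (−5.48) lie on the PLC5 side and WLS (3.84) and SP5 (3.50) on the HA22T side; for GLUL and LGR5 the HA22T arrays were not above background.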

How the data were processed

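Intensity values were those the authors deposited from Agilent Feature Extraction (version 10.5.1.1 in the submitters' processing notes): the processed signal of each spot, already background-subtracted, with flags. Spots flagged as non-uniform, 489 to 3633 per array, were left out, as in the methods of the study. A table of log2 values per probe that the authors deposited served only as an alternative. The log2 processed signal minus the 75th percentile over all non-control spots of the array was averaged over spots of a probe. Probes were named through RefSeq transcripts (28174 of 50599), and no coordinates of probes were used. The spots well above background numbered 36679 to 48873 of 58717 per array, and precision is limited by the 3 arrays per group.

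One limma model (version 3.58.1, R 4.3.3; lmFit, then eBayes) held the 4 groups, and Benjamini-Hochberg adjustment ran over tested probes. No array test is singled out in the methods, so Student's test was run as the methods' t-test. The Wnt genes, the further pathway genes and the markers were chosen with earlier results of these data known. Values per array were given for GALNT1, LRP5, WNT3 and WNT3A, the 14 Wnt genes with the largest line difference with siControl among those called, and genes meeting the criterion of the methods. The other genes named, and SP5, GLUL and WLS per array, illustrate counts. In simulated arrays (200 of 37369 probes changed, lines with siControl), 14% of log2 changes of 1, 72% of 2, 90% of 3 and 96% of 5 were recovered. In simulated arrays of the HA22T knockdown (36286 probes) these were 2%, 64%, 92% and 100%. Each simulation held 200 changed probes at once, which eases the adjustment, whereas 0 genes were called in the real knockdown at their brightest probes. GALNT1 itself, at −5.10 in HA22T, was not called at that probe (adjusted p = 0.0708 from limma), though another of its probes was. The simulated shares are therefore not the power of the real knockdown comparisons.

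Deviations from the group means correlated between same-numbered HA22T arrays (0.55, 0.403 and 0.43), so the numbers were taken to pair them. This rests on the values, since the labels give only the numbers. Same-numbered arrays of different lines correlated at 0.352, 0.345 and −0.0448 with siControl, and at 0.147, 0.0448 and −0.287 with siGALNT1. A correlation of this kind therefore does not by itself mark a pair. Correlations between same-numbered PLC5 arrays (0.706, −0.0232 and 0.164) did not all pass 0.1. Alternatives were normexp (offset 50), quantile or median scaling, the deposited table, other filters and flags, the slide or replicate number as a block, slide 1 alone, other priors and fits, the mean over probes, and each array left out. A percentile over unflagged spots was added after seeing the data.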

Additional observations from a re-analysis of the deposited data

How the results depend on the processing

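The number of Wnt genes called between the lines was 18 with siControl and 17 with siGALNT1. Leaving out each array gave 14 to 18 and 13 to 18. Of 16 other settings per comparison, only the arrays of slide 1, with 1 PLC5 array per siRNA, moved the counts beyond 1.5 times, to 10 and 7. The lone PLC5 array was there assumed to vary like the other groups. With the slide as a block 16 were called in each. A replicate block gave 17 and 17, losing WNT2 in the first. The methods' t-test gave 17 and 12, losing WNT2 with siControl and WNT6, FZD1, FZD4, ROR1 and AXIN2 with siGALNT1. Fits of only the compared groups gave 18 and 14. After siGALNT1, and for its difference between the lines, 0 were called under every setting run, the replicate block in HA22T included. A filter asking for all 6 arrays gave 14 and 13 and left DKK1, LEF1 and AXIN2 untested by its construction. The same holds for DKK1 or LEF1 when 1 array of the line that expresses it was left out. The direction turned for WNT7B with siGALNT1 in the mean over probes (0.42), and for WNT3 after siGALNT1 in HA22T with quantile scaling (0.041) and the unflagged percentile (0.0407), where the cause was not tested. The latter scaling moved the median over all probes from 0.10 to 0.32 between the lines with siGALNT1, from 0.04 to 0.15 with siControl and from −0.06 to 0.06 after siGALNT1 in HA22T; quantile scaling moved the first to 0.22. Genes below background in a line have only a bound there.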

Other observations

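A dim WNT7B probe stood apart from the other Wnt probes after siGALNT1 in HA22T. It read −4.29, −3.0 and −4.07 with siGALNT1 and −6.14 and −7.06 on the unflagged siControl arrays, which were not above background. The difference of the group means was at least 2.78-fold (adjusted p = 0.955 from limma). In PLC5 it read −6.79, −7.56 and −8.02 with siControl and −6.78, −7.31 and −7.52 with siGALNT1, all below background. Of 50599 probes, 2 were well above background on the 3 HA22T siGALNT1 arrays and on none of the other 9 (0.00395%), this one and a probe that is unnamed here. A flagged array counted as not above background in this tally. The brightest WNT7B probe differed by 0.25 in HA22T, in the same direction, and was not called. Its siGALNT1 arrays (−1.52, −1.61 and −1.65) all lay above its siControl arrays (−1.99, −1.87 and −1.68). The dim probe was chosen after its values were seen, and which transcripts each probe reads was not analysed here.

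A second AXIN2 probe, brighter than the one used above, was flagged on most arrays and had no unflagged siGALNT1 array in HA22T. The 1 unflagged siControl array of PLC5 read 1.32 and the siGALNT1 arrays −0.92, 0.11 and −0.89. The difference of −1.89 rests on that single array, beside 0.07 for the probe used above.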
